A study of Rattus norvegicus with 19 samples.

Results

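The genes described here are 112 Ensembl gene IDs whose RNA rose and fell with that of transthyretin (Ttr) across 19 rat brain libraries. They were chosen by their measured values in these same libraries, from 32883 IDs in the deposited count table. Levels are in CPM, the count of an ID in each 1000000 counts of its library, and were compared as log2(CPM + 1). An ID was a member if it reached 5 CPM in at least 1 library, had an SD over 0.7 on that log2 scale and had a Pearson r of 0.8 or more with Ttr over all 19 libraries. Of 898 IDs past the CPM and SD filters, 116 reached that r, and Ttr with 3 other IDs was set aside by the rule. The correlation with Ttr is therefore how these genes were found and not a result about them.

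Transthyretin is the protein that carries thyroxine and, bound to retinol-binding protein, vitamin A. In the brain it is made above all by the epithelium of the choroid plexus, which lies inside the ventricles, produces cerebrospinal fluid and secretes the protein into it. The lower horn of the lateral ventricle runs beside the amygdala. These facts are background; which of the 112 IDs belong to that epithelium could not be looked up, because neither the count table nor the gene table at hand pairs these Ensembl IDs with symbols (0 of 32883 matched). The members are therefore described by their values, and only 2 are given by ID: the one with the highest r, ENSRNOG00000039107, and the most abundant one, ENSRNOG00000004089. For the same reason no marker list of any cell type could be measured beside them, the amygdala included, and no sequence is shown.

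The animals were female Wistar rats on chow, daughters of fathers in 4 groups: control (5 libraries), HFD (a high-fat diet, 4 libraries), ELS (early life stress, described in the series text as maternal separation, 5 libraries) and ELS-HFD (both, 5 libraries). The sample labels say brain, whole tissue lysate, and female, while the series text says amygdala and male. All daughters met an elevated plus maze, a test of anxiety, on postnatal day 57 ± 1. The labels name no father or litter, so daughters of 1 father may be counted as separate replicates, and p-values measure only the spread between these animals. Library totals ran from 7034837 to 20266594 counts. The share of counts held by a library's top 10 IDs was 25.8% in HFD replicate 1, 14.8% and 16.7% in ELS-HFD replicates 2 and 3, and 9.0% to 13.9% in the other 16 libraries. HFD replicate 1 and ELS-HFD replicates 2 and 3 were left out together in 1 of the alternatives.

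Ttr itself was either plentiful or nearly missing. In daughters of control fathers it stood at 4715, 2409, 1111, 891 and 319 CPM in replicates 1 to 5. In daughters of HFD fathers it stood at 1.77, 2.55, 1.53 and 0.694 CPM in replicates 1 to 4, where the lowest value rests on 7 counts. The lowest control thus lay far above the highest HFD library. In daughters of ELS fathers it was 7.24, 1.74, 0.909 and 1.15 CPM in replicates 1 to 4, and 4672 CPM in replicate 5. In daughters of ELS-HFD fathers it was 0.753 and 5.08 CPM in replicates 1 and 4, 855 and 821 CPM in replicates 2 and 3, and 11277 CPM in replicate 5. No library lay between 7.24 and 319 CPM, so 10 libraries sat below a wide gap and 9 above it. The ELS and ELS-HFD groups had libraries on both sides of it.

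The 112 members followed the same division with a narrower span. Their summed level was 3372, 1997, 960, 890 and 539 CPM in control replicates 1 to 5, and 244, 238, 260 and 252 CPM in HFD replicates 1 to 4. In the ELS group it was 400, 282, 241 and 277 CPM in replicates 1 to 4 and 3778 CPM in replicate 5. In the ELS-HFD group it was 241, 824, 817, 223 and 6566 CPM in replicates 1 to 5. The sum thus varied 29.5-fold between the highest and lowest library, against 16259-fold for Ttr. Below the gap the summed level stayed between 223 and 400 CPM, so the sum did not vanish where Ttr was nearly missing. Many single members were low there: 38 to 67 of the 112 reached 1 CPM in each of these libraries. At least 1 count was found for 95 to 105 members in each library below the gap and for 111 or 112 in each library above it. In a bulk sample, fewer cells that make these RNAs and less RNA per cell cannot be told apart.

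**Figure D1:**
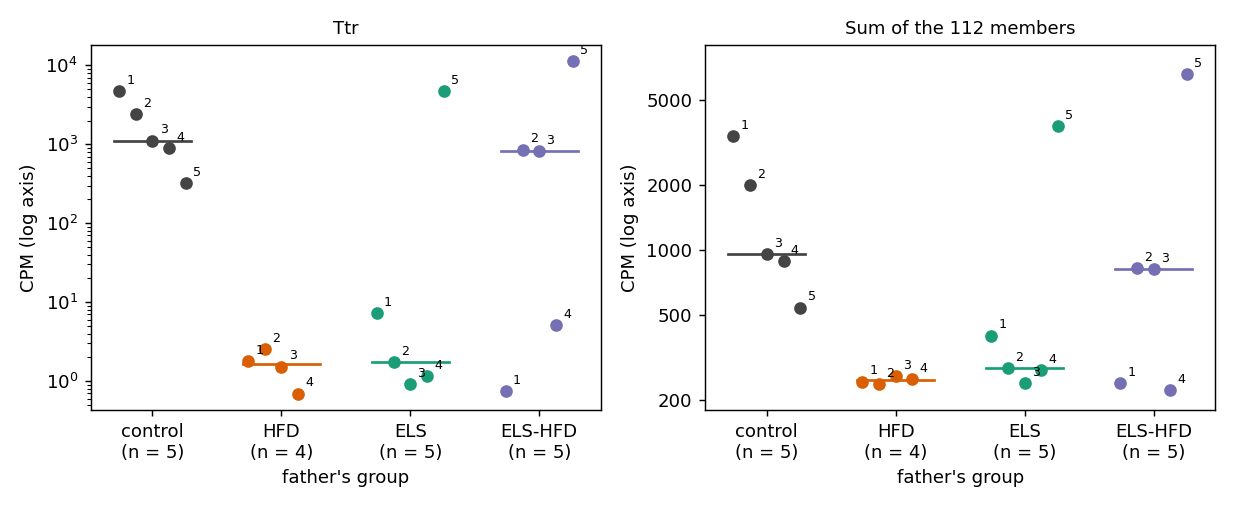
Level of Ttr (left) and summed level of the 112 members (right) in CPM on log axes, 1 point per library numbered by replicate, in the 4 groups of fathers; the bar is the group's median. All 5 control libraries lie above all 4 HFD libraries in both panels, while ELS replicate 5 and ELS-HFD replicates 2, 3 and 5 lie far above the rest of their groups.

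The order of the libraries was shared closely among the members, which the rule in large part requires. ELS-HFD replicate 5 was the highest library for 110 of the 112 and ELS replicate 5 for the other 2. For 93 members the 3 highest libraries were the same 3 as for Ttr, namely ELS-HFD replicate 5, control replicate 1 and ELS replicate 5. The median Pearson r between 2 members was 0.90 (6216 pairs, over 19 libraries), with 0.61 as the lowest. Among the 782 other IDs past the same CPM and SD filters the median r between 2 IDs was 0.46. Library totals were 7034837 to 20266594 counts in the 9 libraries above the gap and 10092297 to 14493508 counts in the 10 below it, and the part of depth in the order was not tested.

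**Figure D2:**
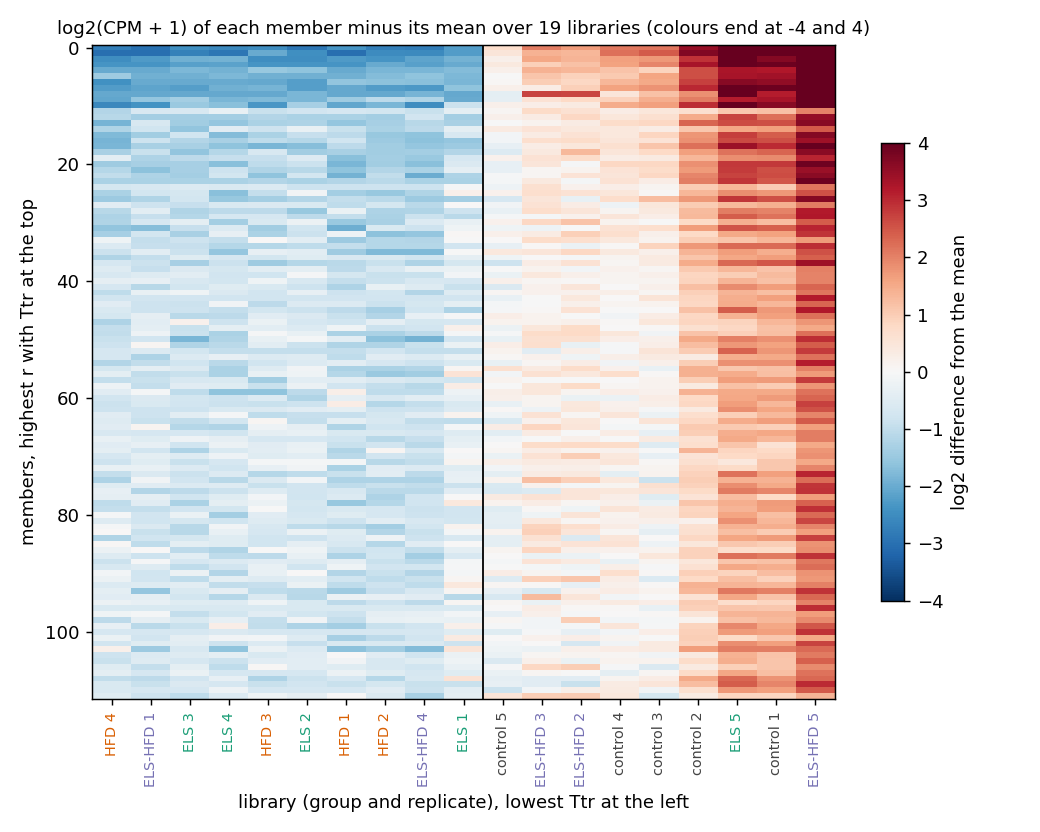
Log2(CPM + 1) of each member (rows, highest r with Ttr at the top) minus that member's mean over the 19 libraries (columns, lowest Ttr at the left, names coloured by group), with the vertical line at the gap in Ttr between 7.24 and 319 CPM. The 10 libraries left of the line are blue for most members. Those right of it are red for most members except control replicate 5, where the members' mean log2(CPM + 1) was 1.89, the lowest of the 9. The contrast is strongest in the top rows.

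How tightly a member tracked Ttr differed. Of the 112, 8 had an r of 0.95 or more, 19 an r from 0.9 up to 0.95, 40 from 0.85 up to 0.9 and 45 from 0.8 up to 0.85. The 3 members nearest the threshold were at 0.802, with mean levels of 1.40 to 6.57 CPM, and the 3 IDs just outside it were at 0.797, 0.795 and 0.795, with mean levels of 1.26 to 2.85 CPM. The threshold therefore falls within a continuous run of genes. Most members were of low abundance: the mean level was under 2 CPM for 25, from 2 to under 10 CPM for 62 and 10 CPM or more for 25.

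Within the 9 libraries above the gap the members' log2 levels rose with Ttr. These 9 are among the 19 libraries the rule used, so the rule requires this in part. The median r over the members was 0.94 (quartiles 0.90 and 0.97), and 102 of 112 had an r of 0.8 or more in these 9 libraries. Without control replicate 1 and ELS-HFD replicate 5, the pair farthest from the median of Ttr, the median was 0.89 (quartiles 0.78 and 0.95, 7 libraries). Within the 10 libraries below the gap the median r was 0.14, with a range of -0.69 to 0.64 over the 110 members that varied there. No member had an r of 0.8 or more below the gap, and 33 had a negative one. Ttr rested on only 7 to 102 counts in these 10 libraries, and 38 to 67 members reached 1 CPM in each. Whether counting noise hid a correlation there was not tested. All libraries of 1 member share the Ttr values and the library totals, so these correlations describe the pattern and carry no p.

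The members also differed in what was left of them where Ttr was nearly missing. A total of 37 members had 0 counts in at least 1 library, 75 had a count in every library, and 25 held at least 1 CPM in every library. Among the 75 with a count throughout, the highest library exceeded the lowest by a median of 37.0-fold (8.88-fold to 1037-fold). The 8 members with the highest r were nearly missing in some libraries, which so high an r with Ttr over these libraries in part requires. They fell to between 0 and 0.147 CPM in their lowest library and reached 62.0 to 380 CPM in their highest, and 7 of them had 0 counts in at least 1 library.

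ENSRNOG00000039107, the member closest to Ttr (r = 0.99), was at 161, 87.9, 34.3, 33.4 and 12.1 CPM in control replicates 1 to 5 and at 0.567, 0.207, 0.416 and 0.198 CPM in HFD replicates 1 to 4. Control and HFD libraries did not overlap. It was at 0.710, 0.0789, 0.454 and 0.327 CPM in ELS replicates 1 to 4 and 158 CPM in replicate 5. In ELS-HFD replicates 1 and 4 it had 0 counts, which allows up to 0.226 CPM (3 counts, counting error only), and 0.147 CPM. In ELS-HFD replicates 2, 3 and 5 it was at 25.02, 32.2 and 317 CPM. Each of the latter 2 groups therefore held libraries from both ranges. For every 1000 CPM of Ttr there were 34.1, 36.5, 30.9, 37.5 and 37.8 CPM of this RNA in control replicates 1 to 5, 33.9 in ELS replicate 5, and 29.3, 39.2 and 28.1 in ELS-HFD replicates 2, 3 and 5. This ratio moved 1.40-fold over libraries in which Ttr moved 35.3-fold.

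ENSRNOG00000004089, the most abundant member (r = 0.91), kept a clear level in every library. It was at 944, 525, 266, 233 and 126 CPM in control replicates 1 to 5 and at 51.8, 69.1, 67.7 and 71.6 CPM in HFD replicates 1 to 4. It was at 122, 72.5, 62.3 and 88.1 CPM in ELS replicates 1 to 4 and at 1100 CPM in replicate 5. In ELS-HFD replicates 1 to 5 it was at 50.5, 177, 167, 64.8 and 1744 CPM. Control and HFD did not overlap here either, though the lowest control (126 CPM) was close to ELS replicate 1 (122 CPM). This single ID supplied 20.5% to 31.8% of the summed level of all members, depending on the library. Per 1000 CPM of Ttr it ran from 155 CPM in ELS-HFD replicate 5 to 395 CPM in control replicate 5, so its ratio to Ttr was less even than that of ENSRNOG00000039107.

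**Figure D3:**
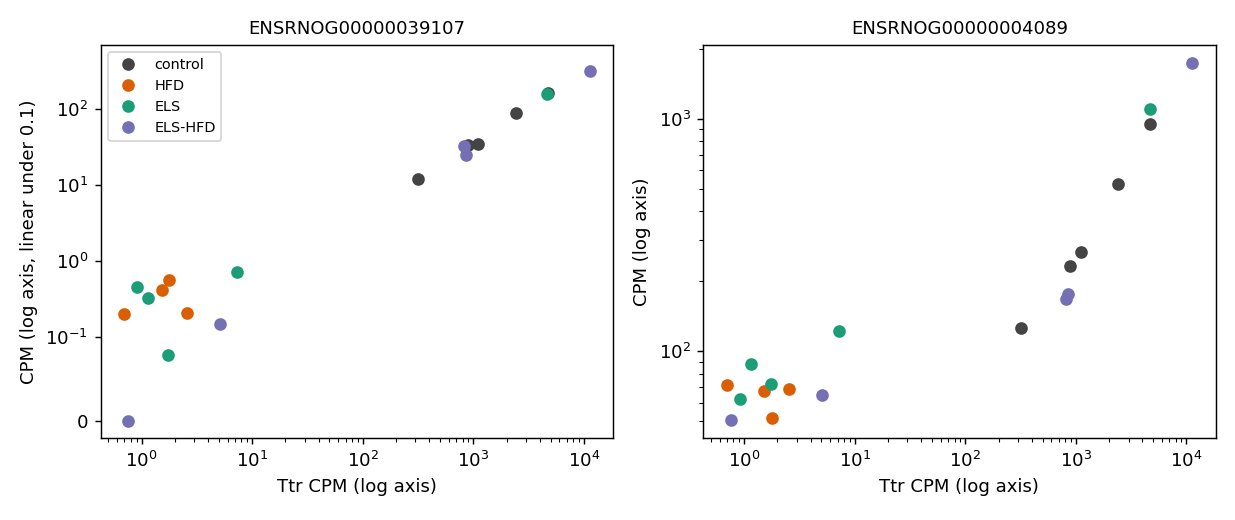
CPM of ENSRNOG00000039107 (left) and ENSRNOG00000004089 (right) against CPM of Ttr, log axes (the left vertical axis is linear under 0.1), 1 point per library coloured by group. On the left the 9 libraries above the gap rise in proportion to Ttr from 12.1 to 317 CPM while the rest stay under 1 CPM; on the right the rest level off between 50.5 and 122 CPM.

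An even ratio to Ttr was uncommon among the members. Over the 9 libraries above the gap, the ratio of member to Ttr spanned under 2-fold for 9 members, 2-fold to under 5-fold for 47 and 5-fold or more for 54, out of 110 with a count in all 9. The median span was 4.86-fold and the widest 19.7-fold. The 9 with the most even ratio fell to at most 2.87 CPM in their lowest library, and 8 of them had 0 counts in at least 1. For the summed level the ratio was 1.69 in control replicate 5, where Ttr was lowest of these 9 libraries, and 0.582 in ELS-HFD replicate 5, where it was highest. It lay between 0.715 and 0.998 in the other 7.

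One library below the gap stood somewhat apart. ELS replicate 1, in which Ttr was at 7.24 CPM, held 400 CPM of the members against 223 to 282 CPM in the other 9 libraries below the gap. It was the highest or tied highest of those 10 libraries for 41 of the 112 members, 2 of which had 0 counts in all 10. The next such library, HFD replicate 1, was highest for 14. In 27 members ELS replicate 1 exceeded control replicate 5, although Ttr was at 319 CPM in the latter. Of the 112 members, 52 had every library above the gap higher than every library below it. When these 2 libraries were set aside, a choice made after seeing the data, 73 did. The gap is that of Ttr, which the members were chosen to follow. The share over all IDs was not counted, so these counts are no result about the members.

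HFD was set against control to see what went with the father's diet alone. All 112 members were kept by edgeR's filter on low counts, some of them only through the libraries in which they were high. Each had a lower fitted level in HFD, with a median log2 fold change of -2.50 (quartiles -3.59 and -1.63), against 0.01 over all 15372 IDs tested. By edgeR's quasi-likelihood test over all 19 libraries 0 members passed an adjusted p of 0.05, as did 0% of all IDs. At an unadjusted p under 0.05, 76 members (67.9%) were lower in HFD, against 3.02% of all IDs tested. In 81 members (72.3%) every HFD library lay below every control library, against 2.37% of all IDs. The members share the library order of Ttr by choice, and Ttr itself separated these groups, so these counts amount to 1 pattern seen in many genes and not to that many findings. The count of 76 became 40 when control replicate 1 was left out (244 of 15312 IDs) and 44 when HFD replicate 2 was (642 of 15547 IDs). It became 49 when the 3 libraries with the highest share of counts in 10 IDs were left out together (427 of 15470 IDs).

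The HFD mean of ENSRNOG00000039107 was 0.347 ± 0.178 CPM (SD, n = 4), and its control mean 65.7 ± 60.1 CPM (SD, n = 5). EdgeR put its log2 fold change at -7.36 ± 2.47 (SE; adjusted p = 0.616). The HFD mean of ENSRNOG00000004089 was 65.1 ± 8.97 CPM (SD, n = 4), and its control mean 419 ± 328 CPM (SD, n = 5). EdgeR put its log2 fold change at -2.58 ± 1.04 (SE; adjusted p = 0.616). All HFD libraries were below all controls for both RNAs, but neither passed the test over all libraries. DESeq2 called 2 members, neither of them these 2 (adjusted p = 0.0691 and 0.46), among 0.0325% of all IDs. With the ELS and ELS-HFD libraries removed, edgeR called 2 members among 0.0203% of all IDs, 1 of them ENSRNOG00000039107 (adjusted p = 0.0461). Over all alternatives the adjusted p of that ID, by edgeR or DESeq2, ran from 0.0461 to 1.00.

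ELS was set against control to see what went with the father's stress alone. The members' mean log2(CPM + 1) was 1.72 ± 1.20 (SD, n = 5) in ELS and 2.69 ± 0.753 (SD, n = 5) in control. The median log2 fold change of the members was -0.70, and 111 of 112 were lower in ELS. By edgeR 0 members passed an adjusted p of 0.05 (0% of all IDs), and 0 were lower at an unadjusted p under 0.05, against 2.15% of all IDs. In 0 members did all ELS libraries lie below all controls, against 121 of the 15372 IDs tested. The members were chosen to follow Ttr, which was at 4672 CPM in ELS replicate 5. The result rested on ELS replicate 5. Without that library the median was -2.06 and 84 members were lower at an unadjusted p under 0.05, against 469 of 15315 IDs. None passed adjustment.

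ELS-HFD against control gave the smallest median difference of the 6 comparisons. The mean log2(CPM + 1) of the members was 2.28 ± 1.49 (SD, n = 5) in ELS-HFD, and the median log2 fold change was 0.17, with 84 members higher and 28 lower. By edgeR 0 members passed an adjusted p of 0.05 (0% of all IDs), and 0 were higher at an unadjusted p under 0.05, against 2.15% of all IDs. Without ELS-HFD replicate 5 the median turned to -1.18, with 22 members lower at an unadjusted p under 0.05, against 491 of 15320 IDs. These 3 comparisons share the control libraries and are not independent of each other.

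Adding the diet to early life stress, ELS-HFD against ELS, gave a median log2 fold change of 0.87, with 111 of 112 members higher. By edgeR 0 members passed adjustment (0% of all IDs), and 1 was higher at an unadjusted p under 0.05, whereas 8.73% of all IDs were. The absence of calls over all IDs did not hold in every fit. DESeq2 called 151 of 15372 IDs and 0 members, 12 of which got no adjusted p. Without HFD replicate 1, a library of neither group, edgeR called 2405 of 15547 IDs and again 0 members. The direction turned without ELS-HFD replicate 5, where the median was -0.50. Without ELS replicate 5 the direction stayed and the median was 2.22. There 93 members were higher at an unadjusted p under 0.05, against 1308 of 15315 IDs. These too amount to 1 pattern, that of Ttr.

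Adding early life stress to the diet, ELS-HFD against HFD, gave a median log2 fold change of 2.60, with all 112 members higher. By edgeR 0 passed adjustment (0% of all IDs), and 88 (78.6%) were higher at an unadjusted p under 0.05, against 2.09% of all IDs. The log2 fold change of Ttr itself was 10.4 (edgeR, unadjusted p = 0.00359). The members were chosen to follow Ttr, so the 88 amount to 1 pattern and not to that many findings. DESeq2 called 2 members, among 0.0195% of all IDs. ELS-HFD replicates 1 and 4, with summed levels of 241 and 223 CPM, were nevertheless at the level of the HFD libraries (238 to 260 CPM). Without ELS-HFD replicate 5 the median was 1.10 and 12 members were higher at an unadjusted p under 0.05, against 124 of 15320 IDs. Without HFD replicate 2 there were 55 such members, against 256 of 15547 IDs.

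A test of interaction compared the difference by diet between unstressed and stressed fathers. The diet went with a median of -2.50 in daughters of unstressed fathers and 0.87 in daughters of stressed ones, and the median of the members' interaction was 3.22, positive in all 112. By edgeR 0 members passed adjustment (0% of all IDs), and 90 (80.4%) were positive at an unadjusted p under 0.05, against 2.84% of all IDs. The interaction of Ttr itself was 11.5 (edgeR, unadjusted p = 0.00401). The members were chosen to follow Ttr, so the 90 amount to 1 pattern and not to that many findings. DESeq2 called 1 member, among 0.0325% of all IDs. Without ELS replicate 5 the median was 4.49 and edgeR called 11 members, among 0.0784% of all IDs. Without ELS-HFD replicate 5 the median was 1.74 and 24 members were positive at an unadjusted p under 0.05, against 255 of 15320 IDs. Without control replicate 1 there were 54 such members, against 279 of 15312 IDs.

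**Figure D4:**
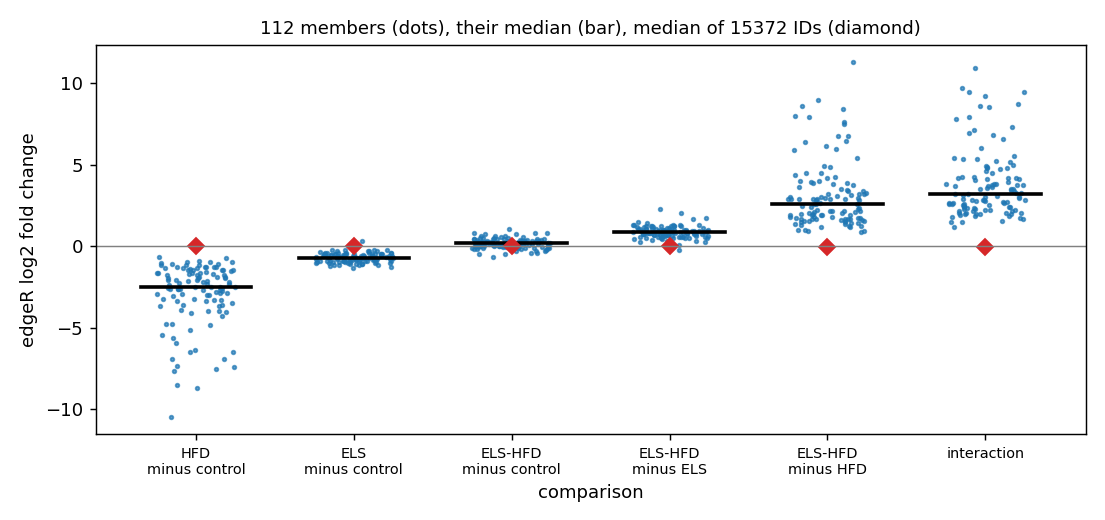
EdgeR log2 fold change of each of the 112 members (dots) in the 6 comparisons, with the members' median (bar) and the median of all 15372 IDs (diamond). The members lie below 0 for HFD minus control (median -2.50), near 0 for ELS-HFD minus control (0.17) and above 0 for ELS-HFD minus HFD (2.60), while all IDs centre near 0.

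The members also differed between groups in how far the libraries of 1 group lay apart, which was not tested. They were chosen to follow Ttr, which was at 0.694 to 2.55 CPM in HFD and lay on both sides of its gap in ELS and ELS-HFD. Their spread thus repeats that of Ttr in large part and is no result about the members. The spread over all IDs was not measured. The ratio of the highest to the lowest library within a group, taken on CPM + 0.5, had a median over the members of 2.0 in HFD, 4.14 in control, 9.02 in ELS and 15.8 in ELS-HFD. Only 39 to 54 members reached 1 CPM in each HFD library, so the added 0.5 narrows the ratio there. In HFD, the members' mean log2(CPM + 1) was 1.05 ± 0.0912 (SD, n = 4), and HFD replicate 1, which stood apart in the share of its most abundant IDs, was within it at 0.993. Whether the tissue taken differed from animal to animal was not tested.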

How the data were processed

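The deposited table holds whole-number counts per Ensembl gene ID for 19 libraries, which the authors had not normalized, judging by the values and the file headers. Rnor_6.0 and DESeq2 are named in the submitters' processing notes. The sources used here do not give the aligner, the annotation release or the handling of strand, so counts of overlapping or near-identical genes are uncertain to an unmeasured degree. Per the labels' protocols, polyadenylated RNA was enriched from about 400 ng and primed at random. The number in a sample's description identified its column. Replicates within a group differed by more than sampling noise in all 36 pairs. The median scaled squared difference was 39.3 to 46.2 times that of sampling noise in the pairs with HFD replicate 1. It was 2.73 to 18.5 times in all other pairs.

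Totals ran from 7034837 to 20266594 counts, and CPM uses these totals. EdgeR 4.0.16 (R 4.3.3) ran its quasi-likelihood test across the 15372 IDs kept by filterByExpr, with TMM scaling, group as the only term and Benjamini-Hochberg adjustment over all IDs. SE is the size of the log2 fold change divided by the square root of F. Alternatives were DESeq2 1.42.0, no filter on low counts, a fit to 2 groups only, the replicate number as a block, each library left out, and other rules of membership. The procedure was tested on simulated data. The members, the gene lists and the tests were chosen with earlier results of these data known. The 19 gene lists and most of the rule for named genes need symbols and could not be applied, so 2 IDs were named, by highest r and highest mean CPM.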

Additional observations from a re-analysis of the deposited data

Results flagged for a closer look

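Ttr, 2 summaries of the members and 2 single members were examined for a library that stands alone in each of the 4 groups of fathers, which makes 20 sets of values. Such a library was found in 5 of them, and it was ELS replicate 5 each time. The rule would flag about 1 in 20 independent sets by chance, but the members were selected to follow Ttr. The 5 thus amount to 1 observation and are not set against chance. As log2(CPM + 1), this library stood at 12.19 for Ttr, 7.32 for ENSRNOG00000039107 and 10.1 for ENSRNOG00000004089. The mean over the members was 3.84, against 1.06 to 1.45 in the other 4 ELS libraries, and the log2 of their summed CPM plus 1 was 11.88.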

How the results depend on the processing

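The number of members was 27 at an r of 0.9 or more and 71 to 127 when 1 library was left out; the 71, without ELS-HFD replicate 5, were all among the 112. With Spearman's rho 73 of 79 were shared. Members called at an adjusted p of 0.05 (0 in every comparison by edgeR over all libraries) became 2 with DESeq2 and 2 in a fit to the 2 groups alone for HFD against control, 2 with DESeq2 for ELS-HFD against HFD, and 1 with DESeq2 and 0 to 11 with 1 library left out for the interaction. Members at an unadjusted p under 0.05, with 1 library left out, ranged from 40 to 95 for HFD against control, 0 to 84 for ELS against control, 0 to 22 for ELS-HFD against control, 0 to 93 for ELS-HFD against ELS, 12 to 105 for ELS-HFD against HFD and 24 to 111 for the interaction. Fits to the 2 groups alone kept fewer members past the filter on low counts. There these counts were 2 of 107 for ELS against control, with 2327 of 14732 IDs at that p in either direction. They were 0 of 84 for ELS-HFD against ELS (4132 of 14652 IDs) and 50 of 79 for ELS-HFD against HFD (213 of 14758 IDs). DESeq2 gave 2 for ELS-HFD against ELS (3379 of 15372 IDs). The 3 libraries highest in the share of their 10 most abundant IDs were also left out, a choice made after seeing the data. The counts were then 49 for HFD against control (690 of 15470 IDs in either direction) and 0 for ELS-HFD against ELS (2901 of 15470 IDs). The members' median log2 fold change, with 1 library left out, ran from -2.65 to -1.98 for HFD against control, -2.06 to -0.26 for ELS against control, -1.18 to 0.58 for ELS-HFD against control, -0.50 to 2.22 for ELS-HFD against ELS, 1.10 to 2.88 for ELS-HFD against HFD and 1.74 to 4.49 for the interaction. The log2 fold change of ENSRNOG00000039107 in HFD against control stayed between -7.80 and -6.72 over all alternatives, and that of ENSRNOG00000004089 between -2.81 and -2.04 with 1 library left out. The cause of the changes in counts was not tested, and fits to 2 groups and fits without a library have fewer samples. Of the upper ends, 95 went with 478 of 15315 IDs lower (without ELS replicate 5) and 555 of 15320 (without ELS-HFD replicate 5). The 105 went with 473 of 15340 IDs higher (without ELS-HFD replicate 4), and the 111 with 567 of 15315 (without ELS replicate 5). For most of the other fits the counts over all IDs are not given, so the ranges describe only the members.

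With the replicate number as a block, members lower at an unadjusted p under 0.05 were 68 for ELS against control and 9 for ELS-HFD against control. Of 15372 IDs, 420 and 294 were. Members higher were 4 for ELS-HFD against ELS and 19 for ELS-HFD against HFD, against 1225 and 155 IDs. The median for ELS-HFD against HFD became 1.29, and adjusted calls were 0. The median for ELS-HFD against control turned from 0.17 to -0.80, with 102 members lower and 10 higher, and that for ELS against control went from -0.70 to -1.64. Whether the numbers pair the animals was not tested. Of 27 same-numbered pairs 9 had deviations correlated over 0.1 (range -0.436 to 0.573), and 6 of 19 libraries correlated best with their own number. The highest, 0.573, was that of ELS replicate 5 with ELS-HFD replicate 5, the 2 libraries with the highest summed level of the members. The HFD group has no replicate 5.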

Other observations

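No mirror image of the members was seen among the other variable genes. Of the 782 other IDs past the same CPM and SD filters, 0 had an r with Ttr of -0.6 or less, the lowest was -0.44 and the median was -0.01 (19 libraries).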
